A study of Mus musculus with 6 samples.

Results

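The genes described here are Zbp1 and 7 other genes of necroptosis: Ripk1, Ripk3, Mlkl, Casp8, Fadd, Cflar and Cyld. They were read at probe sets that the platform annotation assigns to that gene alone. Of the 8 genes, 7 had such a probe set, 1 each, out of 22180 genes and 41345 probe sets in all, and Ripk1 was not analysed here. The samples were RAW 264.7 cells, a mouse macrophage-like line, transfected for 48 h with a GapmeR at 50 nM. GapmeRs are antisense oligonucleotides that lead RNase H to cut the target RNA, and their ends are locked nucleic acid. The Control group (3 arrays) received a non-targeting GapmeR and the Mist-targeted group (3 arrays) a GapmeR against Mist, a long noncoding RNA. All 6 samples share the line, the transfection and the RNA dose of 5 µg per labelling, and the labels name 1 GapmeR against Mist, so the oligonucleotide and its target cannot be told apart.

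Necroptosis is a lytic form of cell death. The sensor ZBP1 binds nucleic acids in the left-handed Z form, such as Z-RNA of viruses or of the cell itself, and passes the signal through RHIM motifs to the kinase RIPK3, which phosphorylates the pseudokinase MLKL, and MLKL then breaches the plasma membrane. RIPK1 carries the same signal from TNF receptors, while caspase-8, held by the adaptor FADD and paired with the caspase-like protein cFLIP (gene Cflar), cuts RIPK1 and RIPK3 and so restrains the pathway. The deubiquitinase CYLD strips chains from RIPK1. Macrophages hold these proteins and induce Zbp1 in response to interferon.

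Zbp1 was the gene with the widest separation of the 7, and it was 2.62-fold higher in the Mist-targeted samples. Ripk3 was 1.48-fold higher, Casp8 1.20-fold, Fadd 1.19-fold and Mlkl 1.15-fold. Cflar was 1.13-fold lower, and Cyld hardly differed at 1.01-fold. The set was put together with the Zbp1 difference between these same arrays known, and the series holds no other contrast. The values of the 7 genes are therefore a description, and nothing is read from the limma calls given for them below.

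The deposited values are log2 expression, so a difference of 1 is a doubling. Array medians lay between 4.47 and 4.50, and correlations between arrays between 0.986 and 0.991. The labelled cell type was checked on its markers. All 10 macrophage markers measured, among them Csf1r, Cd68 and Spi1, lay above the array median on every array, at log2 values of 8.88 to 12.86. Of these 10, limma called 1, the IgG receptor gene Fcgr1, which rose. The 21 measured markers of T cells, B cells, neutrophils, fibroblasts and epithelium lay between 3.30 and 4.76, and 1 of the 5 neutrophil and 1 of the 5 fibroblast markers were above the median on every array. The summed neutrophil markers ranged from 20.30 to 20.63 in Control and from 20.65 to 20.91 in Mist-targeted arrays, without overlap, with 0 markers of the other cell types called; their part in the results was not tested. The summed macrophage markers ranged from 105.1 to 105.3 in Control and from 105.4 to 106.1 in Mist-targeted arrays. These are bulk samples, in which fewer cells of a kind and less RNA per cell cannot be told apart. The labels do not say that replicates are separate cultures, so the errors and p values cover the spread among these arrays only, and that spread may be technical.

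Zbp1, the Z-nucleic acid sensor (probe set 17395079), had log2 expression of 8.0, 7.78 and 8.01 on the Control arrays and 9.36, 9.28 and 9.32 on the Mist-targeted arrays. Every Mist-targeted array was higher than every Control array, and 1.27 log2 units separated the closest arrays of the groups. The group means were 7.93 ± 0.13 and 9.32 ± 0.040 (SD, n = 3 each), a difference of 1.39 ± 0.094 on the log2 scale (SE of limma, a linear model with variances moderated over all probe sets). That difference was 14.5 times the pooled SD of the replicates. Ordered from the highest, it stood at place 8 of the 22180 genes.

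Ripk3 encodes the kinase that receives the ZBP1 signal through its RHIM. Its log2 expression (probe set 17306906) was 7.03, 7.24 and 7.08 in Control and 7.72, 7.69 and 7.63 in Mist-targeted samples. The groups did not overlap, with a gap of 0.39 between the closest arrays. The difference was 0.56 ± 0.090 (SE), 6.66 times the pooled SD and place 108 of 22180. Mlkl, the membrane-breaching effector that RIPK3 activates (probe set 17513076), had 9.27, 9.37 and 9.44 in Control and 9.62, 9.59 and 9.47 in Mist-targeted samples. Its groups came within 0.037 of each other, so the separation was small beside the Control range of 0.17, and the difference was 0.20 ± 0.089. In the order from sensor to effector the differences were 1.39 for Zbp1, 0.56 for Ripk3 and 0.20 for Mlkl. The set was chosen on Zbp1, and a trend along the chain was not tested.

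Casp8 encodes the protease that cuts RIPK1 and RIPK3. Its log2 expression (probe set 17213213) was 9.99, 9.99 and 9.97 in Control and 10.29, 10.26 and 10.18 in Mist-targeted samples, with no overlap. The difference was 0.26 ± 0.079 (SE). Fadd, the adaptor that brings caspase-8 into the complex (probe set 17498461), had 5.28, 5.25 and 5.32 in Control and 5.56, 5.49 and 5.55 in Mist-targeted samples. Here too the groups did not overlap, and the difference was 0.25 ± 0.078. Replicates of these genes lay close together, with pooled SDs of 0.043 for Casp8 and 0.034 for Fadd against 0.081 for Mlkl, so differences of about the Mlkl size were 6.08 and 7.24 times the replicate SD and that of Mlkl 2.51 times. Such SDs rest on 3 arrays per group, and the moderated SEs of limma lay closer together, at 0.079, 0.078 and 0.089 in the same order.

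Cflar, whose product cFLIP pairs with caspase-8 and lacks its catalytic activity, was the only 1 of the 7 below Control. Its log2 expression (probe set 17213192) was 7.98, 7.92 and 7.90 in Control and 7.76, 7.67 and 7.82 in Mist-targeted samples. All 3 Mist-targeted arrays lay under all 3 Control arrays, by 0.072 at the closest, and the difference was -0.18 ± 0.084 (SE). Cflar and Casp8 are close relatives and near neighbours in the mouse genome: in the RefSeq gene table of GRCm38.p6 only Gm39646 starts between them. Relative to each gene's Control mean, Casp8 moved against Cflar by 0.48, 0.54 and 0.30 on the Mist-targeted arrays (SD 0.13), and the SD over the Control arrays was 0.031. The pair was set side by side after their opposite directions were seen, so this is a description. Cyld, the deubiquitinase of RIPK1 (probe set 17503681), had 7.45, 7.57 and 7.40 in Control and 7.56, 7.42 and 7.47 in Mist-targeted samples. Those values overlapped fully in range, and the difference was 0.009 ± 0.088.

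**Figure D1:**
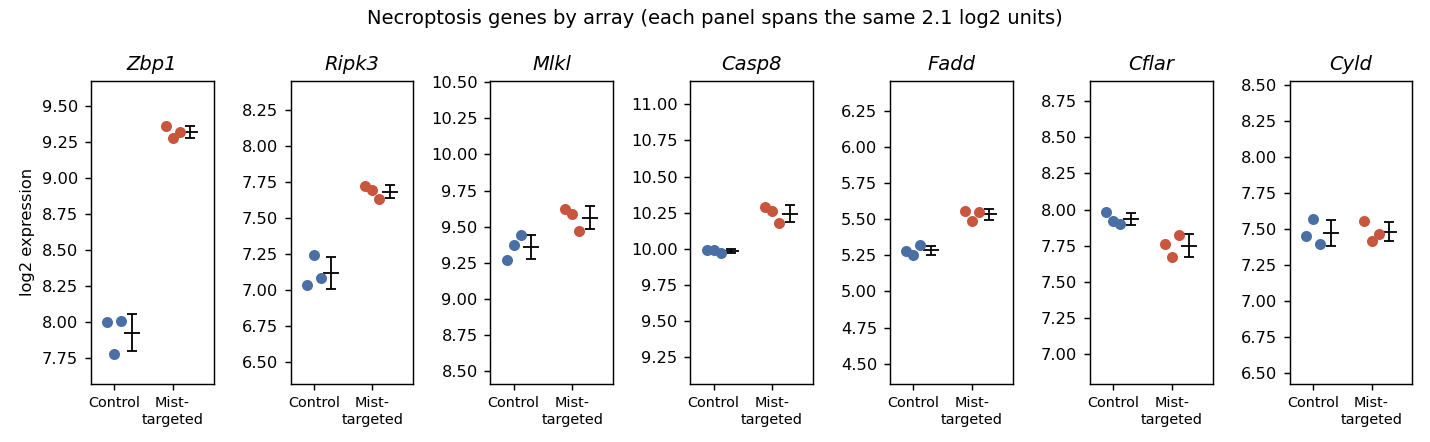
Log2 expression of the 7 measured genes, 1 panel per gene and 1 point per array, with Control in blue and Mist-targeted in red; black marks give the mean and SD of the 3 arrays, and all panels span an equal range. Zbp1 moves from 7.93 to 9.32 and Ripk3 from 7.12 to 7.68, Mlkl, Casp8 and Fadd shift up by 0.20 to 0.26, Cflar shifts down by 0.18, and the Cyld groups overlap.

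Counted over the 7 genes, the groups did not overlap for 6, of which 5 were higher and 1 was lower in the Mist-targeted samples. Over all 22180 genes the groups did not overlap in 20%, with 9.99% higher and 9.97% lower. The median difference of the 7 was 0.25 and that of all genes 0.0069, and 6 of the 7 had a positive difference against 11579 of 22180. At an adjusted p under 0.05 in limma (Benjamini-Hochberg over all probe sets) 0.254% of the probe sets were called, and 1 of the 7, Zbp1, was among them. Zbp1 was not called without Control replicate 2 or without Mist-targeted replicate 3. The set was chosen on this contrast, so nothing is read from these counts.

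Upstream sequences are shown for 3 of the genes: Ripk3, as the member after Zbp1 with the largest difference, and the neighbours Casp8 and Cflar, which differed in opposite directions. RefSeq promoter windows on build GRCm38.p6 were found for 7 of the 8 genes, and Zbp1 was not among them. Each sequence is the 250 bases before the gene's start, 5′ to 3′ on the gene's strand: chr14:55788858-55789107 on the minus strand for Ripk3, chr1:58802252-58802501 on the plus strand for Casp8 and chr1:58711241-58711490 on the plus strand for Cflar. Capitals mark matches, on either strand, to AANNGAAA, the core motif of interferon regulatory factors.
Ripk3: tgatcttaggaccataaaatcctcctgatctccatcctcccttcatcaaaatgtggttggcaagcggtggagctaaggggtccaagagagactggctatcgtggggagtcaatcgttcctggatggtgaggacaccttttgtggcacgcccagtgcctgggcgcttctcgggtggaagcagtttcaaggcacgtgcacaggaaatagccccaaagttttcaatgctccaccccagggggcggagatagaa
Casp8: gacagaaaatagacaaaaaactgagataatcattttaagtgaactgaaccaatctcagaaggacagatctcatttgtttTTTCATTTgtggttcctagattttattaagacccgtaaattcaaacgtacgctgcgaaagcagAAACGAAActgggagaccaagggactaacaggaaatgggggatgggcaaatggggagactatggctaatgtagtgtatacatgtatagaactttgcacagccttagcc
Cflar: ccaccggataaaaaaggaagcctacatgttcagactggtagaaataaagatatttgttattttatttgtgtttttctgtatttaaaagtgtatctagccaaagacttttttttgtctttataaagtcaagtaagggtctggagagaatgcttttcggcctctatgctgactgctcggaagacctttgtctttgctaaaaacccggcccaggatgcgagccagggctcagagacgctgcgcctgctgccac
The Casp8 window held 2 matches, at -171 to -164 and at -108 to -101 from the start, the Ripk3 and Cflar windows 0. Of the other members, the Cyld window held 1 match and those of Mlkl, Fadd and Ripk1 (which has 2 windows) 0. Among 32851 windows of this length, 21.3% held at least 1 match. The gamma-activated site TTCNNNGAA, the STAT dimer motif, was in 7.02% of the windows. It was found 2 times in 1 of the Ripk1 windows, at -108 to -100 and -11 to -3, and 0 times in those of the other 6 genes. A match is a run of letters and not a binding site, and these motifs were chosen after the expression values were seen.

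The genes around the pathway differed less than Zbp1, but Zbp1 was chosen with its difference known, so nothing is read from that. Of 76 genes on 5 lists by role, 69 had a probe set of their own, and limma called 1 of them, the interferon signalling gene Stat2, which rose; of all genes 0.415% were called. Before adjustment, 16 of the 69 had a p under 0.05, of which 12 were higher and 4 lower. Of all 22180 genes 11% had such a p, 5.24% higher and 5.79% lower, and the counts in each list below stand beside these shares. The groups did not overlap for 15 genes that were higher and 8 that were lower, beside the 20% of all genes given above. The median difference of the 69 was 0.016. These 5 lists too were chosen with earlier results of these data known. Their counts and p values, here and in the lists below, are therefore a description.

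Interferon signalling and Z-RNA editing is the list nearest to Zbp1, since interferon signalling induces it. Of its 11 measured genes Stat2 rose and 10 did not pass. Before adjustment 5 of the 11 had a p under 0.05 (limma), all 5 of them higher. Of all genes 11% had such a p, and 5.24% had one and were higher. Stat2 had log2 expression of 9.44, 9.39 and 9.49 in Control and 10.15, 10.09 and 10.11 in Mist-targeted samples, a difference of 0.67 ± 0.079 (SE, n = 3 each, limma, adjusted p = 0.031). All 3 Mist-targeted arrays were above all Control arrays. The call ended when any 1 of the 6 arrays was left out, with limma's adjusted p then between 0.091 and 0.17. Irf7, an interferon-induced regulator of interferon genes, had 9.81, 9.89 and 9.82 in Control and 10.40, 10.37 and 10.61 in Mist-targeted samples, and its difference of 0.62 ± 0.094 did not pass (limma, adjusted p = 0.061). Irf1 differed by 0.40 ± 0.090 (limma, adjusted p = 0.16). The other measured genes of the list were named after their values were seen. Irf9, Ifnar1, Ifnar2 and Jak1 differed by -0.0020, 0.013, 0.040 and 0.029. Eif2ak2, the RNA-activated kinase PKR, differed by 0.37 ± 0.10 (limma, adjusted p = 0.24) and the receptor kinase gene Tyk2 by -0.25 ± 0.12 (limma, adjusted p = 0.56), with no overlap between the groups for either. Adar encodes the editing enzyme that shares with ZBP1 a domain for Z-RNA and counters it, and it differed by 0.23 ± 0.093 (limma, adjusted p = 0.48). Ifnb1, the interferon beta gene, lay below the array medians on all arrays, at 3.45 to 3.85; no measure of background was used here.

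Death ligands, receptors and adaptors feed the pathway at the cell surface and endosome. None of the 13 passed limma, and before adjustment 5 had a p under 0.05, all 5 of them higher, beside 5.24% of all genes. Among these 5 was the ligand gene Tnfsf10, which lay below the array medians on all arrays, at 3.75 to 4.14. The median difference was 0.14, with 8 positive and 5 negative. Fas, the receptor of the death ligand FasL, had 5.58, 5.46 and 5.54 in Control and 6.03, 5.92 and 5.83 in Mist-targeted samples. Its groups did not overlap, and the difference of 0.40 ± 0.090 had an adjusted p of 0.16 (limma). Tlr3, the endosomal sensor of double-stranded RNA that reaches RIPK3 through TRIF, differed by 0.50 ± 0.12 (limma, adjusted p = 0.19), and the TRAIL receptor gene Tnfrsf10b by 0.40 ± 0.098 (limma, adjusted p = 0.19).

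Genes for the control of RIPK1 by ubiquitin chains or phosphorylation gave 0 calls among 21 measured genes. Before adjustment 3 had a p under 0.05 (limma), all 3 of them lower. Of all genes 11% had such a p, and 5.79% had one and were lower. Of the 21 differences 15 were negative, and the median was -0.060. Tnfaip3 encodes A20, an ubiquitin-editing brake on RIPK1 and RIPK3 signalling. Its log2 expression was 6.53, 6.60 and 6.85 in Control and 5.74, 6.01 and 6.37 in Mist-targeted samples. The groups did not overlap, but the Mist-targeted arrays spread over more than the gap between the groups, and the difference of -0.62 ± 0.17 did not pass (limma, adjusted p = 0.24). Peli1, a ubiquitin ligase of RIPK1, differed by -0.32 ± 0.081 (limma, adjusted p = 0.20), and Mapkapk2, the kinase MK2 that phosphorylates RIPK1, by -0.20 ± 0.081 (limma, adjusted p = 0.47).

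MLKL cofactors and membrane repair genes gave 0 calls among 14, of which 1 had a p under 0.05 before adjustment and was lower (limma), again beside 5.79% of all genes, and a median difference of 0.025. Itpk1 and Ipmk make inositol phosphates that MLKL needs. Itpk1 differed by -0.31 ± 0.11 (limma, adjusted p = 0.37) and Ipmk by -0.19 ± 0.087 (limma, adjusted p = 0.55). Ninj1, which ruptures the membrane of dying cells, differed by -0.32 ± 0.15 with overlapping groups (limma, adjusted p = 0.57).

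**Figure D2:**
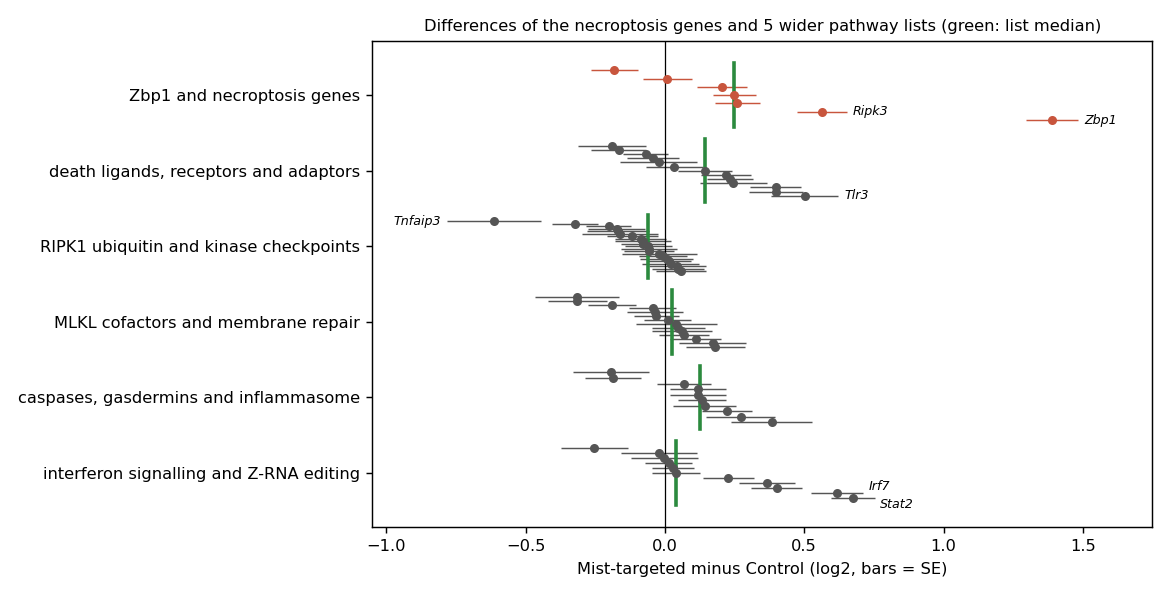
Log2 difference of each gene (Mist-targeted minus Control), with the SE of limma as bars, for the 7 measured necroptosis genes in red and for the 5 wider lists in grey; green lines are list medians. Zbp1, which was chosen with its difference known, lies apart from all others at 1.39. Ripk3 at 0.56 is close to Irf7 at 0.62 and Stat2 at 0.67, and Tnfaip3 at -0.62 is the lowest.

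The array-by-array pattern of Zbp1 was set against all other named genes by the root mean square distance over the 6 arrays, after each gene's Control mean was subtracted. The nearest 5 were Aif1 (distance 0.10), Cfb (0.14), Cd300e (0.20), Apol9b (0.20) and Ccl2 (0.21). Aif1, which encodes the actin-binding protein Iba1, went from 5.13, 4.90 and 5.06 in Control to 6.54, 6.52 and 6.59 in Mist-targeted samples, a difference of 1.52. Like Zbp1, Aif1 and Cd300e were lowest within Control on replicate 2, whereas Cfb and Ccl2 were highest on that array. These genes were chosen for their nearness to Zbp1, so nothing is read from that. The complement gene Cfb differed by 1.44, the myeloid receptor gene Cd300e by 1.15, Apol9b by 1.12 and the chemokine gene Ccl2 by 1.60. The distance follows the size of the group difference above all, and 0 of the other 6 measured necroptosis genes were among the nearest 5.

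**Figure D3:**
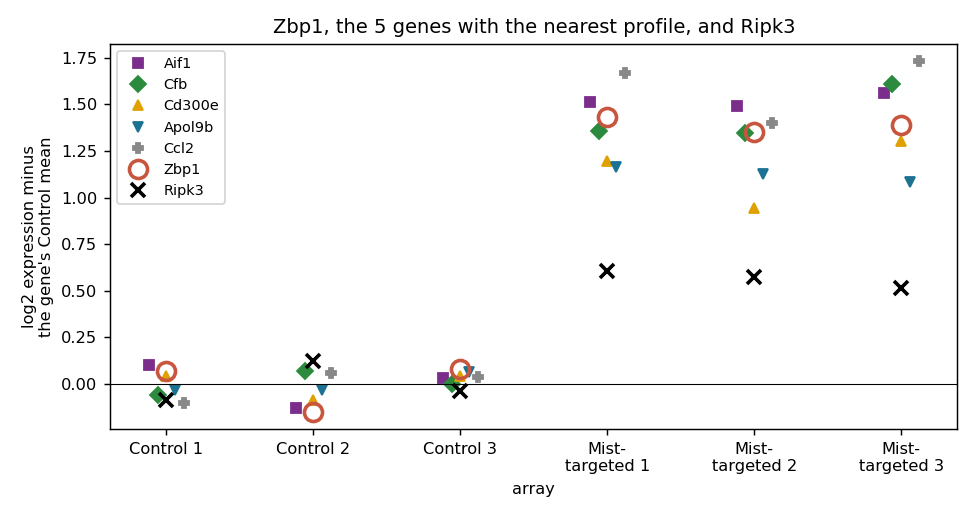
Log2 expression minus the gene's own Control mean on each of the 6 arrays for Zbp1 (open red circles), the 5 genes with the smallest distance to it (filled symbols) and Ripk3 (crosses). Aif1 lies closest to Zbp1, with group differences of 1.52 and 1.39, and Ripk3 lies lower on all 3 Mist-targeted arrays with a difference of 0.56.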

How the data were processed

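The authors deposited log2 expression for each array, and it was used as given. The submitters' processing notes name RMA and Partek and state neither version nor role, and the array's genome build is not given in the sources used here. They run from 2.50 to 14.08. RMA gives all arrays nearly the same distribution, so a general shift of transcripts would be reduced. Groups follow the GapmeR in the labels. No arrays were identical (0 pairs), and 0 columns were left unused.

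Of 41345 probe sets, 23521 have 1 gene symbol in the platform annotation, 1814 several and 16010 none listed. A gene was read at its probe set with the highest mean over the 6 arrays. Differences are Mist-targeted minus Control from a two-sided limma fit on group alone (version 3.58.1, R 4.3.3, lmFit with eBayes), with Benjamini-Hochberg adjustment over all 41345 probe sets and a threshold of 0.05. The fit was tested on simulated data. Their number limits the precision of the arrays: an exact test of 3 against 3 cannot go below p = 0.1. Python 3.11.15, pandas 2.3.3 and matplotlib 3.10.9 made tables and plots.

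The members and lists were chosen with earlier results of these data known. Named in each wider list are genes past the threshold and the 3 with the smallest p. All other measured genes of the interferon list, and Tnfsf10 for its low values, were added after their values were seen. Gm, Rik and LOC symbols were passed over for the 5 genes nearest to Zbp1. Alternatives were a replicate block, eBayes with trend and robust, quantile normalization, median centring, leaving out the dimmest 40% of probe sets, adjusting over single-gene probe sets, the mean of a gene's probe sets, and leaving out each array.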

Additional observations from a re-analysis of the deposited data

How the results depend on the processing

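A replicate block, another moderation, a filter or another adjustment cannot move a difference here, and each of the 7 genes has 1 probe set, so only normalization and left-out arrays could; under these, the differences of the 7 genes and their median moved by less than 1 replicate SD. Leaving out each array in turn gave 1.31 to 1.43 for Zbp1, 0.52 to 0.62 for Ripk3 and 0.23 to 0.25 for the median. The Cyld difference crossed 0, from -0.027 to 0.058. The count of wider pathway genes called was 1, Stat2. It was 2 with eBayes trend and robust, 2 without the dimmest 40% of probe sets (Irf7 was the addition in each), and 7 both over single-gene probe sets alone and with the mean of a gene's probe sets. Those 7, the same genes in both, were Stat2, Irf7, Irf1, Fas, Tnfrsf10b and Tlr3, which were higher, and Tnfaip3, which was lower. Of the necroptosis genes, Ripk3 was called beside Zbp1 with trend and robust, over single-gene probe sets and with the mean of a gene's probe sets. That set was chosen on this contrast, so nothing is read from these calls. Leaving out each array in turn gave 0 wider genes in all 6 fits, with 2 to 40 of all probe sets called in place of 105. The numbers of probe sets called in all were 287 with trend and robust, 161 of 24807 without dim probe sets and 713 of 23521 single-gene probe sets. With the mean of a gene's probe sets, 698 of 22180 genes were called. Quantile normalization and median centring left Stat2 as the only wider gene called, with 115 and 101 probe sets called in all. With the replicate number as a block, the count was 0 wider genes and 0 probe sets in all, Zbp1 included. The Zbp1 difference of 1.39 cannot change with a block in this balanced design. Its SE was 0.087 with the block and 0.094 without, and a block leaves fewer degrees of freedom for the error. The labels do not say that a number marks a shared batch, and deviations of same-numbered arrays correlated at 0.20, 0.096 and 0.033. Replicates 1 and 2 of either group correlated most with their own number, and so did Mist-targeted replicate 3 (0.033, against 0.027 with Control replicate 2). Control replicate 3 correlated more with Mist-targeted replicate 2 (0.060) than with its own number. Whether a number marks a shared batch was not tested.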

Other observations

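Caspases, gasdermins and inflammasome genes execute apoptosis and pyroptosis, the forms of death that caspase-8 links to necroptosis. On this list 10 genes were measured. Limma called 0 of the 10 over all probe sets, and before adjustment 2 had a p under 0.05, both higher, where 11% of all genes had such a p and 5.24% were higher. The differences were positive in 8 and negative in 2, with a median of 0.13. Nlrp3, the inflammasome sensor, had log2 expression of 6.64, 6.99 and 7.13 in Control and 7.38, 7.14 and 7.39 in Mist-targeted samples. Its groups nearly touched, and the difference of 0.38 ± 0.14 (SE) did not pass (limma, adjusted p = 0.43). Bid, which carries the caspase-8 signal to mitochondria, differed by 0.22 ± 0.090 (limma, adjusted p = 0.48). Casp1, the protease that matures interleukin 1 beta, differed by 0.27 ± 0.12 (limma, adjusted p = 0.54), with Mist-targeted replicate 1 at 11.05 and the other two at 10.67 and 10.66.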
